A study of Mus musculus with 24 samples.

Results

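The 10 genes described here encode amino acid transporters of the plasma membrane: Slc7a1, Slc7a5, Slc7a8, Slc7a11, Slc3a2, Slc38a1, Slc38a2, Slc1a4, Slc1a5 and Slc6a9. They were taken by symbol from the authors' annotation of 55487 genes, and each symbol was found once. All 10 were among the 14535 genes that passed a filter on low counts. Their messenger RNA was followed in dendritic cells grown from mouse bone marrow (BMDCs), with and without a conditional deletion of Arpc4, a subunit of the Arp2/3 complex that nucleates branched actin. The design compared differentiating control and knockout cells on each day from day 7 to day 10, the end point.

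The control group (WT) carried the genotype ARPC4 Flox/Flox CD11c-Cre -/-, and the knockout group (KO) carried ARPC4 Flox/Flox CD11c-Cre +/-, so both had floxed Arpc4 alleles and KO alone had the Cre transgene. CD11c-Cre acts in cells that express CD11c (Itgax), so marrow precursors that do not yet express it keep the gene. Marrow came from mice of 8 to 10 weeks, male and female, and was grown with GM-CSF at 50 ng/mL, 20 mM glutamine and 50 µM mercaptoethanol. Cells were moved into fresh medium on days 4 and 7, and the suspension cells were taken while adherent cells were discarded, with over 90% of cells CD11c positive per the labels. WT mice had the numbers 63, 65 and 66 and KO mice the numbers 64, 67 and 68 on every day, which gave 3 libraries in each of 8 groups of genotype and day. The 24 libraries held 19952047 to 31049798 counts.

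A cell takes up amino acids through families of carriers with different substrates. Slc7a1 (CAT1) carries arginine and lysine. Slc3a2 (4F2hc, CD98) is a heavy chain that does not itself carry amino acids but brings light chains to the membrane, where each pair exchanges amino acids across it: Slc7a5 (LAT1) and Slc7a8 (LAT2) exchange neutral amino acids such as leucine, and Slc7a11 (xCT) imports cystine in exchange for glutamate. Slc38a1 (SNAT1) and Slc38a2 (SNAT2) take up glutamine and other small neutral amino acids with sodium, Slc1a4 (ASCT1) and Slc1a5 (ASCT2) exchange neutral amino acids with sodium, and Slc6a9 (GLYT1) takes up glycine. Several of these genes are known targets of ATF4, the transcription factor that is translated when the kinase GCN2 senses uncharged tRNA, and Slc7a11 is also a known target of NRF2. In dendritic cells and macrophages, cystine uptake feeds glutathione synthesis, and leucine uptake is linked to mTORC1 signalling at the lysosome.

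Promoter windows were read for the genes because ATF4 acts through a short element and genes of its pathway were lower in KO on day 7. RefSeq promoter windows on GRCm38.p6, from 250 bases before the start site to 50 bases after it, were found for 7 of the 10 genes. Slc7a5, Slc1a5 and Slc38a1 had no entry. The motif searched for was the core of the C/EBP-ATF response element, TGATGNAA, on both strands. The 3 windows below are those of Slc7a11 and Slc1a4, the genes with a match (in capitals), and of Slc7a1, the gene with the clearest genotype difference.

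Slc7a11, chr3:50443564-50443863, reverse strand: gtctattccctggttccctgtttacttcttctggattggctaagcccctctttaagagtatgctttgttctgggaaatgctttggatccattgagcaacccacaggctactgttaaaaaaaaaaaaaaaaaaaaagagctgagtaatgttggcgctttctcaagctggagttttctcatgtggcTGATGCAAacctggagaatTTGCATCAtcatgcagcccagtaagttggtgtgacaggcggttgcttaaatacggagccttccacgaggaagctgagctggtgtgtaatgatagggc

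Slc1a4, chr11:20332664-20332963, reverse strand: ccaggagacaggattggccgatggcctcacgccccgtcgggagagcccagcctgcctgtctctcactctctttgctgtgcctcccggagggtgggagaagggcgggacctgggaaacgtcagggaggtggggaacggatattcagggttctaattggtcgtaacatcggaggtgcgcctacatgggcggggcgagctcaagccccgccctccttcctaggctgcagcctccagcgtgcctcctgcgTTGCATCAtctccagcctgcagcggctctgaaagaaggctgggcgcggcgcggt

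Slc7a1, chr5:148399855-148400154, reverse strand: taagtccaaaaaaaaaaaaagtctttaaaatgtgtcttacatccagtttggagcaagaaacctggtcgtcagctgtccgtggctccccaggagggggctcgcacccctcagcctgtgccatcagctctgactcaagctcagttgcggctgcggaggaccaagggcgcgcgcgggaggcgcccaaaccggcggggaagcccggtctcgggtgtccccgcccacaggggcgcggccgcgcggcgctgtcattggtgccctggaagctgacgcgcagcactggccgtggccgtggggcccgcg

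Slc7a11 had 2 matches, which began 66 and 47 bases before the start site on opposite strands and did not overlap. Slc1a4 had 1 match, which began 4 bases before the start site. Of 32851 promoter windows of 300 bases, 3.97% held at least 1 match and 0.07% held 2 or more. Neither window of Slc7a1 nor the windows of Slc3a2, Slc38a2, Slc6a9 and Slc7a8 held these letters. TGACNNNGC, the core of the antioxidant response element bound by NRF2, was found in the first window of Slc7a1, in Slc38a2 and in windows 2 and 3 of Slc6a9, and in 12.4% of all windows. The E-box CACGTG was found in 0 of the 10 windows and in 7.15% of all windows. A match is a description of the sequence and was not tested for binding.

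Some features of the libraries come before the values. Arpc4 was lower in all 3 KO libraries than in all 3 WT libraries of the same day. Its KO values were 155 to 182 CPM (the gene's share of the reads of its library, after TMM scaling) beside 188 to 199 in WT at day 7, 223 to 231 beside 246 to 270 at day 8, 199 to 204 beside 219 to 238 at day 9 and 173 to 185 beside 208 to 242 at day 10. Which exons are floxed was not given in the sources used here. The Y-linked gene Ddx3y reached 56.5 to 83.9 CPM in 8 of the libraries, 1 per group, and Xist was at 496 to 948 CPM in the other 16. The high Ddx3y library had the number 63 on every day in WT, whereas in KO it had the number 64 on days 7 and 9, 68 on day 8 and 67 on day 10. A KO number was thus high in Ddx3y on some days and low on others, so the libraries of 1 KO number may not all come from 1 animal. Values given without mouse 64, 67 or 68 leave out the libraries of that number, and both they and the replicate block may mix animals. Results were also computed without these 8 libraries. Itgax was at 750 to 1660 CPM in every library. Markers of other myeloid cells were present too, with Adgre1, a macrophage gene, at 459 to 805 CPM and S100a9, a granulocyte gene, at 593 to 2290 CPM. The summed CPM of 5 monocyte markers on day 7 was 2030 to 2650 for WT and 2140 to 2930 for KO, and on day 8 it was 687 to 742 and 662 to 1070. Summed mast cell and basophil markers were at 37.9 to 162 CPM. Summed markers of red cells (at most 1.37 CPM, Alas2 at 0) and of lymphocytes (at most 10.8 CPM) were low. In bulk RNA a change in the share of a cell type and a change in RNA per cell cannot be told apart, and the part of these cell types in the results was not tested.

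Compared per length as TPM (reads divided by gene length, then scaled to 1 sum in every library) over all 24 libraries, the heavy chain Slc3a2 was the most abundant of the genes with a mean of 232 TPM. Slc7a8 followed with 131 TPM, Slc1a5 with 62 TPM and Slc7a5 with 50.3 TPM. Slc38a2, Slc7a11 and Slc38a1 lay close together at 36, 32.6 and 28.6 TPM, and Slc7a1 was at 11.8 TPM. Slc1a4 at 2.37 TPM and Slc6a9 at 0.534 TPM were low throughout. Within genes, group means in CPM spanned 5.7-fold for Slc7a5, 5.09-fold for Slc1a4, 3.25-fold for Slc7a8 and 1.24 to 2.52-fold for the other 7. KO on day 7 was the lowest group for Slc7a1, Slc7a5, Slc38a1, Slc38a2, Slc1a4 and Slc1a5, and WT on day 10 was the lowest for Slc7a11, Slc3a2, Slc6a9 and Slc7a8. With TPM in place of CPM, WT on day 7 was the lowest group for Slc38a1.

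**Figure D1:**
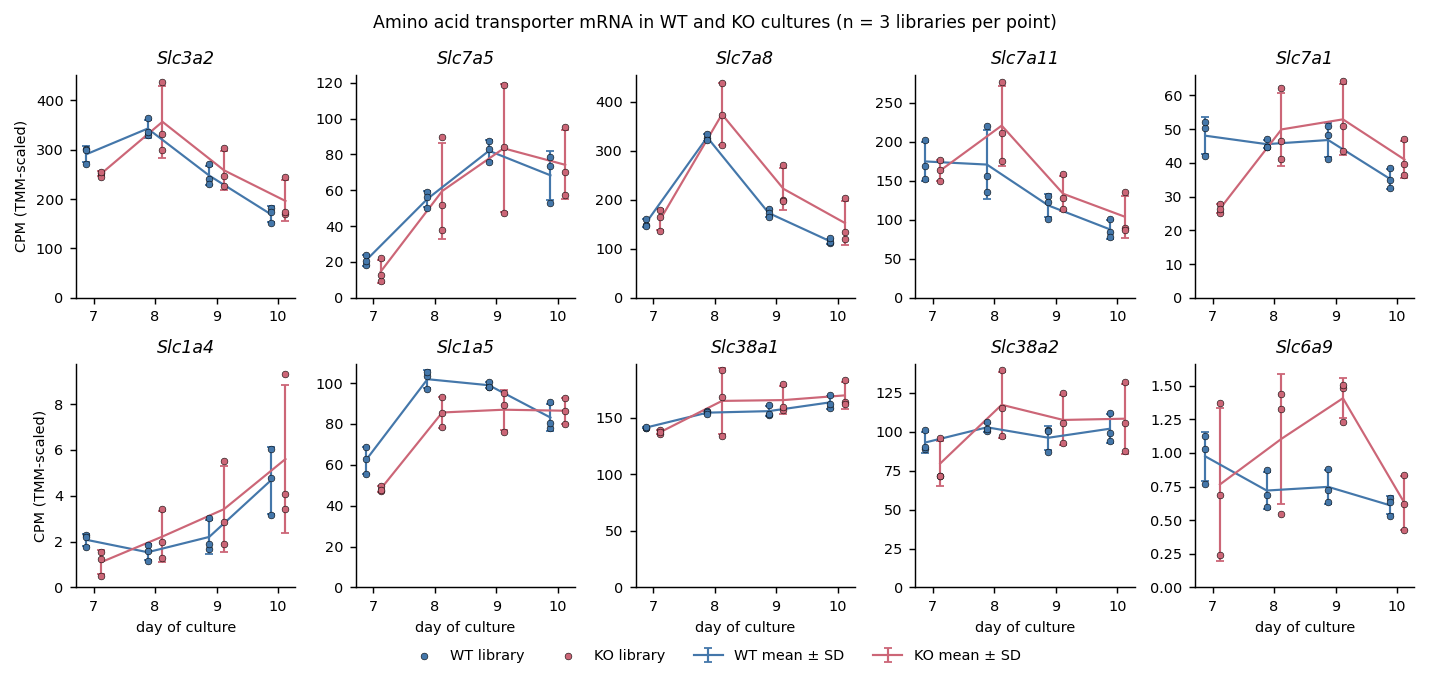
CPM of each gene (vertical axes, linear and from 0) by day of culture for WT and KO; points are libraries, lines join group means, and bars are SD (n = 3). The Slc7a1 panel shows the 3 KO libraries of day 7 at 25.1 to 27.7 CPM below the 3 WT libraries at 41.9 to 52.0 CPM.

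On day 7, Slc7a1 and Slc1a5 were lower in KO than in WT, and the other 8 genes did not pass the test. Slc7a1 (ENSMUSG00000041313.14, chromosome 5, 148327410 to 148399904, reverse strand) stood at 41.9, 50.2 and 52.0 CPM in WT mice 63, 65 and 66. In KO mice 64, 67 and 68 it stood at 25.1, 27.7 and 26.4 CPM. The groups did not overlap, and the KO libraries lay within 3 CPM of each other. The fitted log2 fold change was -0.86 (SE 0.15, 95% interval -1.18 to -0.55; edgeR quasi-likelihood test, adjusted p = 0.00618), which is a level in KO of 0.549 times that in WT. Without the libraries of high Ddx3y the change was -0.91 (SE 0.15, adjusted p = 0.0107 by edgeR). The call was lost without mouse 65 (log2 fold change -0.82, adjusted p = 0.0939 by edgeR) or mouse 66 (-0.79, adjusted p = 0.12 by edgeR), both WT. On TPM values with limma the change was -0.71 (adjusted p = 0.0657).

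Slc1a5 (ENSMUSG00000001918.17, chromosome 7, 16781340 to 16798274, forward strand) had WT values of 55.6, 62.6 and 68.8 CPM and KO values of 47.3, 49.7 and 47.5 CPM on day 7. These groups did not overlap either. The log2 fold change was -0.37 (SE 0.09, adjusted p = 0.043 by edgeR). This call was the less firm of the pair. With the mouse number as a replicate block it was -0.36 (adjusted p = 0.064 by limma), and limma without the block gave 0.0641, so this loss came with the tool. With any one of the 6 mice left out the edgeR adjusted p ran from 0.0525 to 0.275, with changes of -0.45 to -0.29.

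The 2 genes called lower on day 7 make 20% of the 10, beside 0.619% of the 14535 genes tested that were lower and 1.45% called in either direction; 0 of the 10 were higher. Slc3a2, Slc38a1 and Slc1a4 also had groups that did not overlap, with KO lower, which makes 5 of 10 beside 14.2% of all genes. Their log2 fold changes were -0.21 (SE 0.14), -0.04 (SE 0.09) and -0.93 (SE 0.49). The fitted change was below 0 for 9 of the 10 genes, with a median of -0.29 beside -0.014 over all genes. Slc7a8 was the exception at 0.08 (SE 0.16). Beside this, the summed markers on day 7 were 5900 to 6780 CPM in WT against 5190 to 8180 in KO for 12 macrophage genes, 3240 to 4830 against 3900 to 7400 for 11 granulocyte genes and 3070 to 3800 against 3440 to 4170 for 13 dendritic cell genes, and these ranges overlapped. Gene by gene, the fitted change was above 0 for 10 of 12 macrophage markers (median 0.24, 1 called higher, Fcgr1), 8 of 11 granulocyte markers (0.42, 0 called), 5 of 5 monocyte markers (0.47, 1 called higher, Vcan), 9 of 13 dendritic cell markers (0.37, 0 called) and 6 of 7 mast cell and basophil markers (0.75, 0 called; sums of 37.9 to 50.8 CPM in WT and 40.1 to 113 CPM in KO). The sums of 18 cell cycle genes did not overlap on that day, at 421 to 473 CPM in WT and 545 to 838 CPM in KO. The part of these differences in the transporters' values was not tested.

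On days 8, 9 and 10, 0 of the 10 genes differed between KO and WT by the edgeR test, beside 0.00688% of all genes called on day 8, 0.00688% on day 9 and 0.0138% on day 10. DESeq2 also called 0 on each of these days. With an unadjusted p under 0.05 were Slc1a5 on day 8 (1 of 10, beside 5.91% of all genes), Slc1a5, Slc6a9 and Slc7a8 on day 9 (3 of 10, beside 8.15%) and Slc7a8 on day 10 (1 of 10, beside 7.3%). For Slc7a1 the log2 difference was 0.13 on day 8 (95% interval -0.17 to 0.44), 0.18 on day 9 (-0.13 to 0.48) and 0.22 on day 10 (-0.09 to 0.52). Slc1a5 in KO was below every WT library on day 8, at 78.3, 85.2 and 93.3 CPM against 103.5, 96.9 and 105.2 CPM. It was below WT on day 9 as well, at 76.2, 95.3 and 89.4 CPM against 98.2, 100.7 and 97.8 CPM. By day 10 the groups overlapped, with KO at 92.9, 79.9 and 86.6 CPM and WT at 78.0, 90.9 and 80.5 CPM. Slc7a8 in KO was above every WT library on day 9, at 271.1, 199.1 and 196.8 CPM against 181.2, 172.8 and 164.9 CPM, with a log2 difference of 0.36 (SE 0.16). KO below WT without overlap was found for 1 of the 10 and 4.99% of all genes on day 8, and for 1 of the 10 and 6.47% on day 9. KO above WT without overlap on day 9 was found for 2 of the 10, Slc6a9 and Slc7a8, and for 7.62% of all genes.

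**Figure D2:**
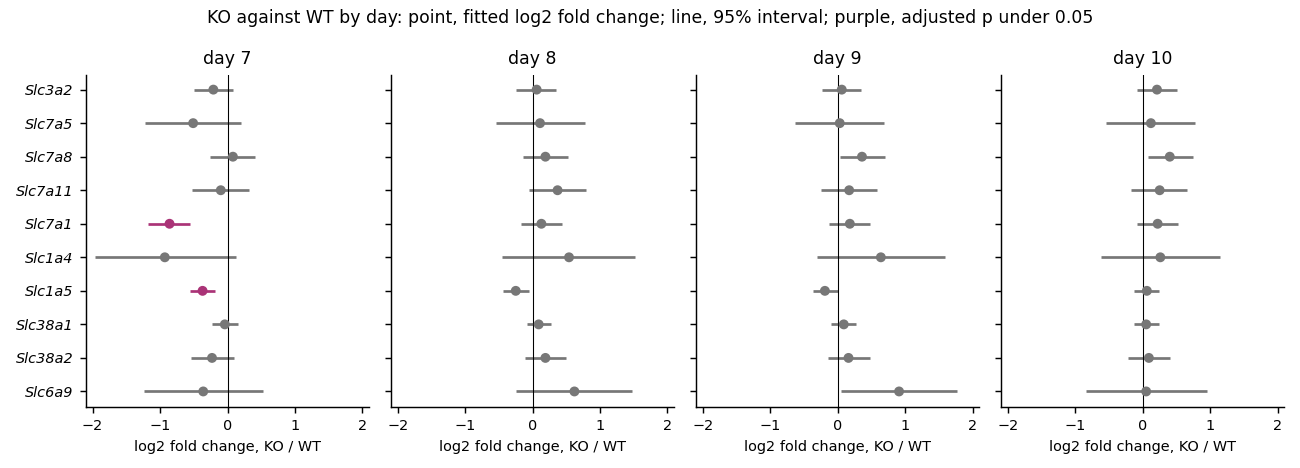
Fitted log2 fold change of KO over WT (horizontal axes) for each gene on days 7 to 10; lines are 95% intervals and purple marks an adjusted p under 0.05. Slc7a1 at -0.86 and Slc1a5 at -0.37 on day 7 are the marked genes, and 0 are marked on days 8, 9 and 10.

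Changes between days passed the test for 9 of the 10 genes in at least 1 genotype, Slc6a9 being the exception. Single comparisons between days called 25.4% to 43.4% of all genes. The share of all genes called in at least 1 of them was not computed. The neutral amino acid exchangers Slc7a5 and Slc7a8 rose between days 7 and 8 in both genotypes. Slc7a5 (ENSMUSG00000040010.10, chromosome 8, 121881150 to 121907694, reverse strand) was at 18.1, 20.5 and 24.1 CPM in WT on day 7 and at 59.2, 50.2 and 56.3 CPM on day 8. In KO it was at 9.42, 21.99 and 12.5 CPM on day 7 and at 51.6, 89.5 and 37.7 CPM on day 8. Every day 8 library was above every day 7 library of its genotype, though the highest KO library was more than 2 times the lowest on each of these days. The log2 fold change was 1.40 (SE 0.33, adjusted p = 0.00168 by edgeR) in WT and 2.03 (SE 0.34, adjusted p = 6.52e-05 by edgeR) in KO. Its change after day 8 did not pass in either genotype (0.31 for each). In the WT libraries alone with the mouse number as a replicate block it was 0.28 (adjusted p = 0.0483 by edgeR), and in KO it was 0.86 without mouse 67 (adjusted p = 0.00814 by edgeR). The day 10 means were 68.3 ± 13.6 CPM for WT and 74.2 ± 19.2 CPM for KO (SD, n = 3). On day 10 against day 7 it was up by 1.71 (SE 0.33) in WT and 2.35 (SE 0.34) in KO on the log2 scale, and both passed the test.

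Slc7a8 (ENSMUSG00000022180.7, chromosome 14, 54722209 to 54781946, reverse strand) had a peak on day 8. In WT it was at 149.0, 161.3 and 145.9 CPM on day 7, at 325.5, 335.0 and 321.7 CPM on day 8 and at 111.3, 113.5 and 121.1 CPM on day 10. In KO it was at 179.1, 137.2 and 164.9 CPM on day 7, at 372.1, 311.9 and 438.9 CPM on day 8 and at 121.0, 203.4 and 133.3 CPM on day 10. The day 8 libraries of each genotype stood above all its libraries of the other days. The rise to day 8 was 1.11 (SE 0.16, adjusted p = 1.3e-05 by edgeR) in WT and 1.22 (SE 0.16, adjusted p = 4.35e-06 by edgeR) in KO on the log2 scale. From day 8 to day 10 it fell, with log2 fold changes of -1.51 (SE 0.16, adjusted p = 3.66e-06 by edgeR) in WT and -1.30 (SE 0.16, adjusted p = 2.46e-05 by edgeR) in KO. Across the whole interval from day 7 to day 10 neither change passed the test, at -0.40 (SE 0.16, adjusted p = 0.0538 by edgeR) in WT and -0.07 (SE 0.16) in KO. The WT fall lay at the threshold and passed in 11 of 18 alternative fits, among them DESeq2 (-0.39, adjusted p = 0.0463), the WT libraries alone with the mouse number as a replicate block (-0.39, adjusted p = 6.17e-05 by edgeR), both other filters, only the groups compared (-0.39, adjusted p = 0.00089 by edgeR) and the fit without the libraries of high Ddx3y (-0.38, adjusted p = 0.0147 by edgeR). On the log2(TPM + 1) scale it was -0.11 (adjusted p = 0.437 by limma). Without KO mouse 67 the KO value was -0.45 (adjusted p = 0.00581 by edgeR).

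Slc3a2, the heavy chain that both exchangers share (ENSMUSG00000010095.13, chromosome 19, 8706882 to 8723369, reverse strand), rose less than either of them from day 7 to day 8. Its level in WT was 271.8, 301.5 and 298.7 CPM on day 7, 328.9, 363.3 and 336.1 CPM on day 8 and 151.7, 181.9 and 174.7 CPM on day 10. In KO it was 252.7, 245.6 and 255.0 CPM, then 332.6, 299.1 and 437.9 CPM, then 170.5, 244.1 and 173.9 CPM. The day 10 libraries lay below all day 7 libraries of their genotype. The rise to day 8 passed the test in KO (log2 fold change 0.51, SE 0.14, adjusted p = 0.00604 by edgeR) and not in WT (0.24, SE 0.14, adjusted p = 0.174 by edgeR), but the difference between these changes did not pass its own test (0.27, SE 0.20). The WT rise passed without KO mouse 67 (0.26, adjusted p = 0.0465 by edgeR) and in the WT libraries alone with the replicate block (0.26, adjusted p = 0.00212 by edgeR), and the KO rise was lost without mouse 68 (0.34, adjusted p = 0.0935 by edgeR). The fall from day 8 to day 10 was -1.02 (SE 0.14, adjusted p = 3.71e-05 by edgeR) in WT and -0.86 (SE 0.14, adjusted p = 0.000276 by edgeR) in KO, where it was lost with only the groups compared (-0.87, adjusted p = 0.063 by edgeR).

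The light chains were also set against the heavy chain they share. Per length, the ratio of Slc7a5 to Slc3a2 TPM in WT was 0.0682 ± 0.00744, 0.154 ± 0.0205, 0.318 ± 0.0438 and 0.382 ± 0.0482 from day 7 to day 10 (SD, n = 3). In KO it was 0.0557 ± 0.0261, 0.171 ± 0.104, 0.324 ± 0.175 and 0.379 ± 0.154 on the same days, with wide overlap between the KO libraries of days 8, 9 and 10. The ratio of Slc7a8 to Slc3a2 was highest on day 8, at 0.674 ± 0.0239 in WT and 0.744 ± 0.0416 in KO, beside 0.369 ± 0.0221 and 0.45 ± 0.0531 on day 7. On day 10 the ratios of Slc7a8 and Slc7a5 stood closer, at 0.482 ± 0.0391 and 0.382 ± 0.0482 in WT. Group means of the ratio of Slc7a11 to Slc3a2 stayed between 0.121 and 0.165. These ratios are of transcripts, not of protein, and were not tested.

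Slc7a11, the cystine transporter (ENSMUSG00000027737.10, chromosome 3, 49892526 to 50443614, reverse strand), was lower on day 10 than on day 7 in both genotypes. On successive days its WT libraries held 169.5, 202.6 and 152.7 CPM, then 135.3, 220.6 and 156.9, then 101.5, 130.6 and 123.2, and at last 84.1, 101.1 and 78.3. Its KO libraries held 163.4, 176.7 and 149.6 CPM, then 276.4, 211.2 and 175.2, then 158.4, 114.3 and 127.7, and at last 89.7, 135.3 and 87.3. Its highest group was KO on day 8, where the change from day 7 was 0.44 (SE 0.20, adjusted p = 0.0811 by edgeR) and did not pass; it passed without the libraries of high Ddx3y (0.59, adjusted p = 0.02 by edgeR), with no filter (0.46, adjusted p = 0.0312 by edgeR) and on both TPM scales (0.63 and 0.64, adjusted p = 0.0104 and 0.0103 by limma). Day 10 lay below day 7 without overlap in both genotypes. The log2 fold change over that interval was -0.99 (SE 0.20, adjusted p = 0.000581 by edgeR) in WT and -0.65 (SE 0.20, adjusted p = 0.014 by edgeR) in KO. The KO call was lost without mouse 64 (-0.55, adjusted p = 0.0895 by edgeR) or mouse 68 (-0.60, adjusted p = 0.078 by edgeR). On the log2(TPM + 1) scale the KO change was -0.36 (adjusted p = 0.122 by limma). That scale moved the median of all genes by 0.249 in the same comparison in KO and by 0.21 in WT, so a change of a gene is best read against that median. The KO and WT comparison of Slc7a11 passed on none of the 4 days.

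Slc7a1 rose in KO and fell in WT between days 7 and 10. Its WT libraries held 44.8, 47.0 and 44.8 CPM on day 8, 51.0, 41.0 and 48.3 CPM on day 9 and 32.5, 34.9 and 38.5 CPM on day 10. Its KO libraries held 46.5, 62.1 and 41.1 CPM on day 8, 43.5, 64.2 and 51.0 CPM on day 9 and 47.1, 36.3 and 39.5 CPM on day 10. In KO every library of days 8, 9 and 10 was above the 3 of day 7, and in WT the 3 of day 10 were below the 3 of day 7. Over the first day the log2 fold change was 0.92 (SE 0.15, adjusted p = 4.42e-05 by edgeR) in KO and -0.08 (SE 0.14, adjusted p = 0.699 by edgeR) in WT. From day 7 to day 10 Slc7a1 rose by 0.64 (SE 0.15, adjusted p = 0.00201 by edgeR) in KO and fell by 0.44 (SE 0.15, adjusted p = 0.0207 by edgeR) in WT. The WT fall did not pass without any one of mice 63, 65 and 66 (edgeR adjusted p from 0.0687 to 0.142) and was -0.15 on the log2(TPM + 1) scale (adjusted p = 0.526 by limma), where the median of all genes stood at 0.21.

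The difference between these changes was 1.00 (SE 0.21, adjusted p = 0.115 by edgeR) for day 8 against day 7 and 1.08 (SE 0.21, adjusted p = 0.0564 by edgeR) for day 10 against day 7. Neither passed, and 0 of the 10 genes passed in either comparison, beside 0.0275% and 0.0619% of all genes. With an unadjusted p under 0.05 were Slc7a1 and Slc1a4 for day 8 (2 of 10, beside 4.71% of all genes) and Slc7a1, Slc3a2 and Slc1a5 for day 10 (3 of 10, beside 6.31%). DESeq2 called 1 gene, Slc7a1, in each (adjusted p = 0.00422 and 0.000883), and the edgeR call for day 10 also passed without mouse 67 (1.18, adjusted p = 0.00393). The fitted difference was above 0 for all 10 genes in both comparisons, with medians of 0.44 and 0.41 beside 0 and 0.004 over all genes. Both differences and the genotype comparison of day 7 use the same 6 libraries of day 7, so these values are not independent of one another.

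**Figure D3:**
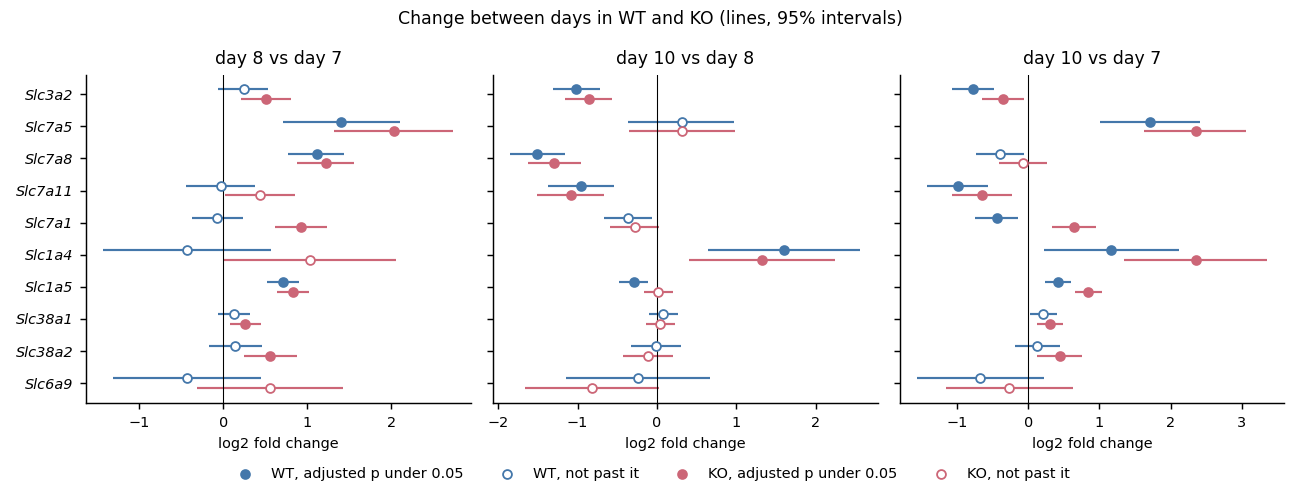
Fitted log2 fold change between days (horizontal axes) for each gene in WT and KO; lines are 95% intervals, filled points have an adjusted p under 0.05 and open points do not. From day 7 to day 10 Slc7a1 lies on opposite sides of 0 in WT (-0.44) and KO (0.64), and Slc7a5 lies at 1.71 and 2.35.

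Both sodium-dependent exchangers of the Slc1a family were higher on day 10 than on day 7. Slc1a5 rose from day 7 to day 8 by 0.71 (SE 0.09, adjusted p = 2.59e-06 by edgeR) in WT and by 0.83 (SE 0.09, adjusted p = 4.41e-07 by edgeR) in KO. It stayed above day 7 on day 10, by 0.42 (SE 0.09, adjusted p = 0.00106 by edgeR) in WT and 0.84 (SE 0.09, adjusted p = 8.25e-07 by edgeR) in KO. In WT it had fallen back from day 8 by 0.29 (SE 0.09, adjusted p = 0.0156 by edgeR), a call lost without mouse 63 or mouse 66 (adjusted p = 0.148 by edgeR and 0.104) and on both TPM scales (-0.24, adjusted p = 0.143 and 0.142 by limma). In KO the change from day 8 to day 10 was 0.01 (SE 0.09).

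Slc1a4 (ENSMUSG00000020142.12, chromosome 11, 20302180 to 20332713, reverse strand) had its highest mean on day 10 in both genotypes. Day by day from day 7, WT libraries held 2.29, 1.78 and 2.18 CPM, then 1.85, 1.61 and 1.16, then 3.04, 1.68 and 1.91, and at last 4.77, 3.18 and 6.06. KO libraries held 0.519, 1.54 and 1.24 CPM, then 1.99, 3.42 and 1.27, then 1.88, 5.50 and 2.87, and at last 9.30, 3.41 and 4.10. On each day the highest KO library was more than 2 times the lowest, and in WT it was less than 2 times the lowest. From day 7 to day 8 the change in KO was 1.03 (SE 0.49, adjusted p = 0.096 by edgeR), which did not pass. The rise from day 8 to day 10 was 1.60 (SE 0.45, adjusted p = 0.0112 by edgeR) in WT and 1.32 (SE 0.44, adjusted p = 0.0312 by edgeR) in KO. The WT call was lost without mouse 63 (adjusted p = 0.0651 by edgeR) or 66 (0.172). The KO call was lost when mouse 63, 64, 65, 66 or 68 was left out, and the change without mouse 64 was 0.66 (adjusted p = 0.31 by edgeR); without mouse 67 it was 2.01 (adjusted p = 0.0013 by edgeR). From day 7 to day 10 Slc1a4 rose by 2.35 (SE 0.47, adjusted p = 0.000649 by edgeR) in KO, or by 1.43 without mouse 64 (adjusted p = 0.0269 by edgeR). In WT it rose by 1.16 (SE 0.45, adjusted p = 0.0461 by edgeR), and with the mouse number as a replicate block by 1.12 (adjusted p = 0.0686 by limma, and 0.0692 without the block). That WT call was also lost without mouse 63, 65, 66 or 68 (adjusted p from 0.0556 to 0.259 by edgeR) and without the libraries of high Ddx3y (1.23, adjusted p = 0.0538 by edgeR).

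The sodium-coupled glutamine carriers changed least. Slc38a1 (ENSMUSG00000023169.15, chromosome 15, 96571418 to 96642913, reverse strand) was the steadiest of the genes. Its WT means ran from 141.1 ± 0.313 CPM on day 7 to 163.4 ± 5.71 CPM on day 10, and its KO means from 137.2 ± 1.67 to 169.6 ± 12.1 CPM (SD, n = 3). In KO it rose by 0.26 (SE 0.09, adjusted p = 0.021 by edgeR) to day 8 and by 0.31 (SE 0.09, adjusted p = 0.0101 by edgeR) to day 10. The KO values of days 7 and 8 overlapped. In WT the change to day 10 was 0.21 (SE 0.09, adjusted p = 0.0659 by edgeR), and it passed without KO mouse 67 or 68 (adjusted p = 0.0199 and 0.0188 by edgeR) and in the WT libraries alone with the replicate block (0.22, adjusted p = 0.00351 by edgeR). The KO rise to day 8 was lost without mouse 64 (0.24, adjusted p = 0.117 by edgeR) or 67 (0.16, adjusted p = 0.175 by edgeR), and that to day 10 without mouse 64 (0.23, adjusted p = 0.148 by edgeR). With only the groups compared the KO rise to day 8 was lost as well (0.28, adjusted p = 0.131 by edgeR).

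Slc38a2 (ENSMUSG00000022462.7, chromosome 15, 96687392 to 96699730, reverse strand), was at 71.3, 95.9 and 71.4 CPM in KO on day 7 and at 114.9, 139.5 and 97.1 CPM on day 8. These groups did not overlap, and the rise was 0.56 (SE 0.15, adjusted p = 0.0048 by edgeR). In WT it was at 88.5, 89.8 and 100.7 CPM on day 7 and at 100.5, 106.1 and 101.6 CPM on day 8, a change of 0.14 (SE 0.15, adjusted p = 0.46 by edgeR). The difference between the changes was 0.42 (SE 0.21) and did not pass. On day 10 Slc38a2 in KO was still up by 0.45 (SE 0.15, adjusted p = 0.0235 by edgeR), with values of 132.1, 87.4 and 105.3 CPM that overlapped day 7. That call was lost without mouse 64 (0.20, adjusted p = 0.393 by edgeR) or mouse 68 (0.39, adjusted p = 0.124 by edgeR), and the rise was 0.72 without mouse 67 (adjusted p = 6.86e-05 by edgeR). It was also lost with only the groups compared (0.43, adjusted p = 0.112 by edgeR).

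Slc6a9, the glycine transporter (ENSMUSG00000028542.17, chromosome 4, 117834506 to 117875198, forward strand), was close to the limit of these data with 564 counts over the 24 libraries. Its span overlaps that of B4galt2 on the opposite strand, which held 151 counts. All genes overlapping its span together held counts equal to 27% of its own. Overlap of exons was not computed. The strand setting of the counting was not given in the sources used here, so the reads of Slc6a9 may include some of B4galt2. Its KO libraries held 0.24, 1.37 and 0.686 CPM on day 7, then 1.32, 1.44 and 0.549, then 1.23, 1.48 and 1.50, and at last 0.835, 0.43 and 0.619. WT libraries lay between 0.534 and 1.12 CPM. The 3 KO libraries of day 9 were above the 3 of WT, but the difference of 0.91 (SE 0.40, adjusted p = 0.556 by edgeR) did not pass, and Slc6a9 passed in 0 of the 12 comparisons.

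Counted over the genes, 3 of 10 rose and 0 fell from day 7 to day 8 in WT, and 7 rose and 0 fell in KO. Over all genes 21.5% rose and 22% fell in WT (43.4% in all), and 21.1% rose and 20.9% fell in KO (42% in all). From day 8 to day 10, 1 rose (Slc1a4) and 4 fell (Slc7a11, Slc3a2, Slc1a5 and Slc7a8) in WT, beside 16.2% and 14.5% of all genes (30.7% in all). In KO 1 rose (Slc1a4) and 3 fell (Slc7a11, Slc3a2 and Slc7a8), beside 13.6% and 11.7% (25.4% in all). Those 3691 genes called in KO became 255 with only the groups compared, where Slc7a8 alone of the 10 was called, 1696 without mouse 64 and 1255 without mouse 68. From day 7 to day 10, 3 rose and 3 fell in WT, beside 18.9% and 18.1% of all genes (37% in all), and 6 rose and 2 fell in KO, beside 19.7% and 17.1% (36.8% in all). Markers of cell types moved over the same interval. Summed macrophage markers went from a mean of 6380 to 2480 CPM for WT and from 7050 to 2730 for KO (7 and 8 of 12 called lower), and summed dendritic cell markers went from 3520 to 7040 CPM and from 3900 to 7510 (7 of 13 called higher in each). Summed granulocyte markers went from 3970 to 6140 CPM in WT (5 of 11 called higher and 2 lower) and from 5420 to 5360 in KO (0 and 2). Mast cell and basophil markers were highest on day 8 in both genotypes, as was Slc7a8, with mean sums of 43.8, 91.4, 78 and 51.6 CPM over the 4 days in WT and 73.2, 122, 115 and 61.5 CPM in KO. The part of these cell types in the changes between days was not tested. Of the falls in KO, that of Slc3a2 was at the threshold (-0.36, SE 0.14, adjusted p = 0.0496 by edgeR) and was lost without mouse 63, 64, 65, 66 or 68, with adjusted p-values of 0.076 to 0.273; without mouse 67 the change was -0.57 (adjusted p = 0.00141 by edgeR). With only the groups compared it was lost as well (-0.36, adjusted p = 0.118 by edgeR), and on the log2(TPM + 1) scale it was -0.07 (adjusted p = 0.575 by limma). The near balance of rises and falls over all genes holds under TMM scaling and not on that TPM scale, where 5081 of 6803 called genes rose from day 7 to day 8 in WT and 5065 of 6693 in KO, and from day 7 to day 10 5806 of 6877 rose in WT and 6439 of 7499 in KO. In the WT libraries alone, with the mouse number as a replicate block, 5 of the 10 genes were called from day 7 to day 8 (Slc3a2 and Slc38a1 added), 7 from day 8 to day 10 (Slc7a1 and Slc7a5 added) and 8 from day 7 to day 10 (Slc38a1 and Slc7a8 added). Of all 14535 genes that fit called 7783, 6223 and 6691 over these intervals, beside 6315, 4457 and 5376 in the main fit. The 7 genes called in KO from day 7 to day 8 included the 3 called in WT, which were Slc7a5, Slc1a5 and Slc7a8.

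Over the 8 group means of log2 CPM, the genes formed no single pattern. Slc7a11 and Slc3a2 ran together (Pearson r = 0.93), as did Slc7a5 with Slc38a1 and with Slc1a5 (r = 0.92 for each), whereas Slc7a11 and Slc1a4 ran in opposite directions (r = -0.73). These correlations describe 8 points that share libraries and days. By the same measure among all genes with an average log2 CPM above 1, the genes most like Slc3a2 were Cers2 (r = 0.994) and Gclc (0.99). Those most like Slc7a5 were Nup37 (r = 0.994), Ehbp1 (0.99) and Maco1 (0.989), and those most like Slc7a8 were Ets2 (r = 0.992), Mfsd1 (0.991) and Alg9 (0.99). Slc7a1 ran most like Rpl29 (r = 0.967), Mapk1ip1l (0.965) and Mtdh (0.947), and Slc7a11 most like Slc25a33 (r = 0.991), Card19 (0.981) and Ifnar1 (0.98). Gclc encodes the catalytic subunit of the enzyme that joins glutamate and cysteine in glutathione synthesis.

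The SD of log2 CPM over the 3 libraries of a group was larger in KO than in WT for 9 of the 10 genes on each of days 8, 9 and 10 and for 6 of the 10 on day 7, where it was larger in WT for Slc7a1, Slc7a11, Slc3a2 and Slc1a5. The share of all genes with a larger SD in KO was not computed. Over all genes tested, pairs of libraries within a group also differed more in KO on days 8, 9 and 10. Their chi-square per degree of freedom was 30.5 to 76.6 beside 7.09 to 17.6 in WT on day 8. It was 25.9 to 85.5 beside 8.17 to 14.8 on day 9 and 33.9 to 130 beside 23 to 24.9 on day 10. On day 7 it was 13.1 to 36.4 beside 9.07 to 13.1. Log2 CPM of the 10 genes lay between -0.51 and 0.51 around the group mean in WT and between -1.35 and 1.17 in KO, with the widest values in the low genes Slc6a9 and Slc1a4. In KO the library with high Ddx3y was the lowest of 3 on all 4 days for Slc7a1, Slc7a5, Slc38a2, Slc1a4 and Slc6a9, a pattern found for 9.67% of all genes, and the highest on all 4 days for Slc7a8, found for 7.2%. In WT 0 of the 10 genes had it lowest or highest on all 4 days, beside 2.84% and 2.41% of all genes. The library with high Ddx3y had the lowest sum of 13 dendritic cell markers in its group on all 4 days in both genotypes, at 3440, 3340, 4170 and 5630 CPM in KO and 3070, 3660, 5220 and 6320 CPM in WT. The KO libraries also had the highest sum of 12 macrophage markers on days 8, 9 and 10 (5200, 3430 and 3110 CPM) and the middle one on day 7 (7770 CPM). Their sums of 18 cell cycle genes were the lowest (545, 494, 985 and 1080 CPM), whereas the WT ones were the highest of 3 on days 7, 8 and 9 and the middle one on day 10. The part of these differences in the values of the transporters was not tested.

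**Figure D4:**
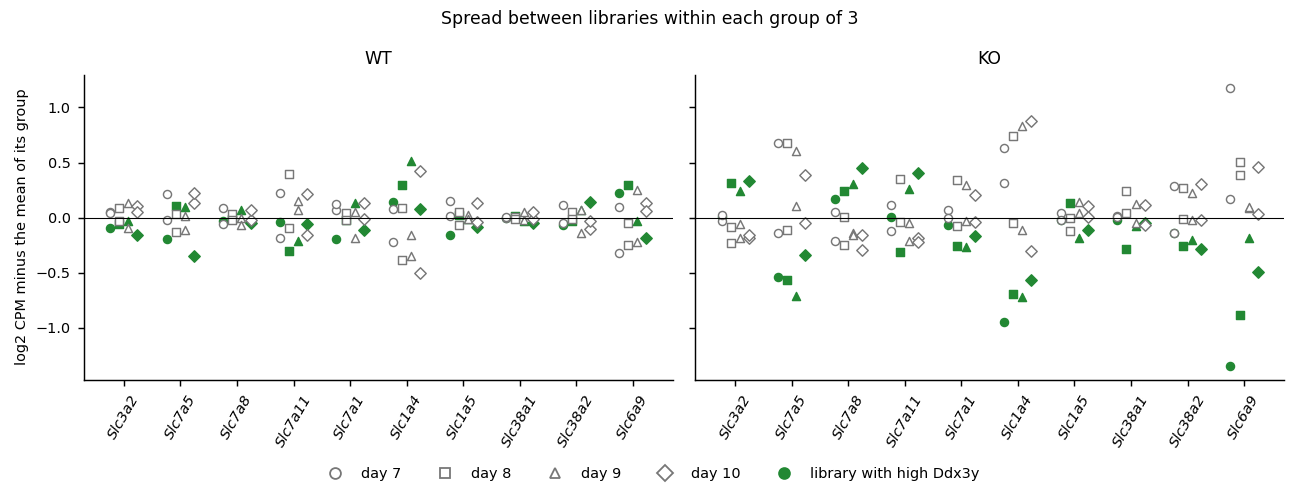
Log2 CPM of each library minus the mean of its group (vertical axis) for each gene in WT (left) and KO (right); shapes are days and green marks the library with high Ddx3y. The KO points spread from -1.35 to 1.17 and the WT points from -0.51 to 0.51, and green lies lowest in KO for Slc7a1, Slc7a5, Slc38a2, Slc1a4 and Slc6a9 on all 4 days.

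The genes around the transporters were read as lists. Of 42 other amino acid transporters, 21 passed the filter on low counts, and the largest count of the rest in any library was 11. Of these 21, 0 were called between KO and WT on any of the 4 days, by edgeR, and their median difference on day 7 was 0.01. Slc7a2 (CAT2), the second cationic transporter of macrophages, rose from 177 ± 21.3 to 312 ± 6.26 CPM in WT (log2 fold change 0.81, SE 0.18, adjusted p = 0.00104 by edgeR) and from 121 ± 17.9 to 241 ± 62.8 CPM in KO (0.99, SE 0.18, adjusted p = 0.00018 by edgeR) between days 7 and 8. Slc36a2, a proton-coupled carrier of small amino acids, fell from 39.3 ± 11.6 to 4.32 ± 0.727 CPM in the WT cultures and in the KO ones from 49.1 ± 13.3 to 5.08 ± 1.98 CPM (SD, n = 3), with log2 fold changes of -3.18 (SE 0.39) and -3.28 (SE 0.39). In all, 4 of the 21 rose and 6 fell in WT over that day, and 2 rose and 8 fell in KO; these 10 of 21 lie near the 43.4% and 42% called over all genes. The balance turned on the log2(TPM + 1) scale, where 6 rose and 3 fell in WT and 6 rose and 5 fell in KO.

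Of 38 genes of the amino acid response through GCN2 and ATF4, 37 were tested. On day 7, 17 of them were lower in KO and 0 were higher, with a median of -0.46, beside 0.619% of all genes lower and 1.45% called. Asns, which makes asparagine, was at 12.8 ± 1.66 CPM in KO beside 39.8 ± 7.15 CPM in WT (SD, n = 3; log2 fold change -1.64, SE 0.16, adjusted p = 1.06e-05 by edgeR). Phgdh, the first enzyme of serine synthesis, was at 5.47 ± 2.32 and 15.8 ± 4.82 CPM (-1.53, SE 0.37, adjusted p = 0.043 by edgeR). Atf4 itself, named after its value was seen, had a log2 fold change of -0.54 (SE 0.10, adjusted p = 0.00959 by edgeR). The count was 18 without the libraries of high Ddx3y, 14 with limma, with the replicate block and without it, 10 on the TPM scales, and 6 to 16 with a mouse left out, lowest without WT mouse 66 (6) and WT mouse 65 (8). On days 8, 9 and 10 0 of the 37 were called by edgeR. Between days 7 and 8, 2 rose and 18 fell in WT, and 11 rose and 4 fell in KO, beside the 43.4% and 42% of all genes called, so the KO total of 15 of 37 is near that share; the TPM scale with a pseudocount of 1 gave 5 and 11 in WT and 20 and 1 in KO. The difference between the genotypes in the change to day 8 was called for 4 and that to day 10 for 6, all above 0. Over all genes 0.0275% and 0.0619% were called. The count for day 10 ran from 0 to 11 over the alternatives. This list was chosen with earlier results of these data known, so it is no independent evidence.

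Of 28 genes of lysosomal amino acid sensing to mTORC1 and 15 NRF2 and glutathione genes, 0 were called between KO and WT on day 7 by edgeR, with medians of -0.03 and -0.12; DESeq2 called 1 gene of each, both higher. Castor1, an arginine sensor of that pathway, fell from 9.34 ± 0.308 to 2.68 ± 0.548 CPM in WT (log2 fold change -1.80, SE 0.15) and from 8.81 ± 1.06 to 3.46 ± 0.227 CPM in KO (-1.35, SE 0.15) between days 7 and 8. Of the NRF2 and glutathione genes, 11 fell and 1 rose in WT from day 7 to day 10, and 8 fell and 0 rose in KO, beside falls for 18.1% and rises for 18.9% of all genes in WT and 17.1% and 19.7% in KO. Hmox1, heme oxygenase, fell from 491 ± 56.8 to 174 ± 10.8 CPM in the WT cultures and in the KO ones from 429 ± 86.0 to 177 ± 73.8 CPM (SD, n = 3), the interval over which Slc7a11 fell in both genotypes. Of 18 cell cycle genes, 17 rose from day 7 to day 10 in each genotype, beside those same shares of all genes, and 0 were called between KO and WT on day 7 by edgeR (median 0.90, 17 of 18 above 0). 

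**Figure D5:**
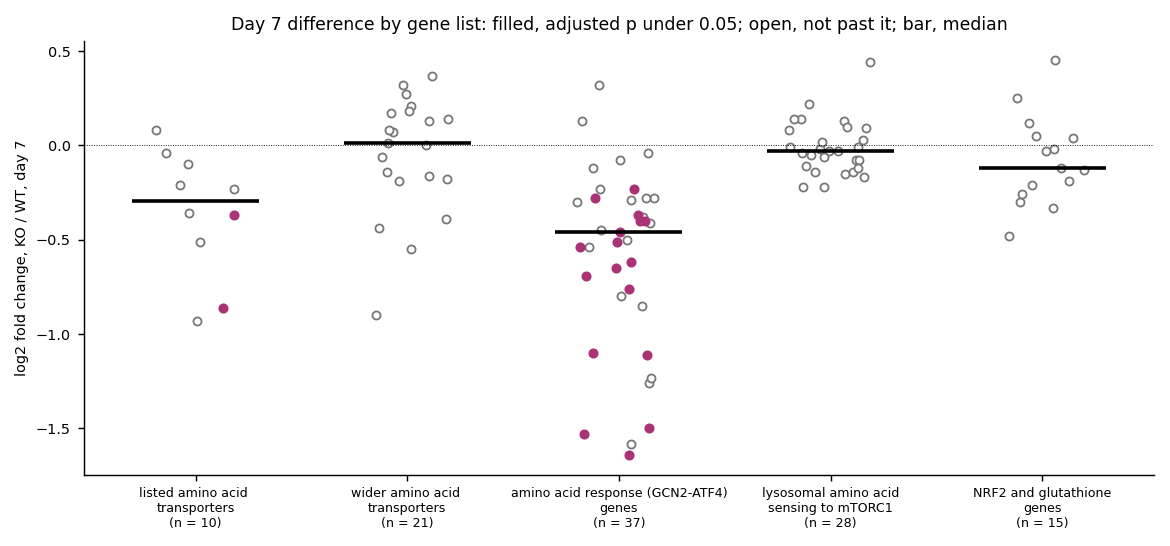
Log2 fold change of KO over WT on day 7 (vertical axis) for the 10 transporters and 4 lists; points are genes, filled where the adjusted p is under 0.05, and bars are medians. The bar of the amino acid response list lies at -0.46 and that of the transporters at -0.29, with the other 3 lists between -0.12 and 0.01.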

How the data were processed

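The authors deposited raw counts per gene, TPM per gene and a table that pairs identifiers with symbols. Per the labels' protocols, poly(A)-selected stranded libraries were made with 2 kits, without saying which library used which, and sequenced as paired ends. Per the submitters' processing notes, FastQC 0.11.9, STAR 2.6.1 and DESeq2 1.22.2 were used with mm10; the counter, its strand setting and the annotation are not given in the sources used here. Of 55487 identifiers 55094 matched GENCODE M21 (GRCm38) with their version, and positions are from it, counted from 1. The deposited TPM values were used for levels per length and as an alternative scale.

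Counts were fitted with edgeR 4.0.16 in R 4.3.3: filterByExpr over 8 groups, TMM factors, a quasi-likelihood model with 1 coefficient per group over 24 libraries (16 residual degrees of freedom) and Benjamini-Hochberg adjustment over 14535 genes, with a threshold of 0.05. The 12 comparisons set KO against WT for every day, 3 intervals between days in each genotype, and the difference of the genotypes' changes to days 8 and 10. SE is the log2 fold change divided by the root of F. Checks on simulated counts preceded use. Replicates of a group are different mice, and counts are PCR-amplified reads without molecular identifiers, so the total counts bound counting error only. The 10 genes and the lists were chosen with earlier results of these data known. Besides the 10, each list gave up to 2 genes per direction with the largest change among those called; like genes were the 3 with the highest correlation, of which 1 is not reported here. Alternatives were DESeq2 1.42.0 (factors and Wald test), 2 other filters, only the groups compared, limma 3.58.1 on log2(TPM + 1) and log2(TPM + 0.1), the mouse number as a block, each mouse left out and, chosen after seeing the data, 8 libraries left out, limma without the block, and edgeR on the WT libraries alone with and without it. Pairing comes from the mouse numbers in the labels: libraries of 1 number, taken relative to their group means, correlated at 0.62, 0.49 and 0.37 for WT mice 63, 65 and 66, and at -0.14, -0.006 and 0.13 for KO mice 64, 67 and 68. Replicate pairs differed by more than sampling noise (chi-square per degree of freedom 7.09 to 24.9 in WT and 13.1 to 130 in KO). Protein sequences were not used here.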

Additional observations from a re-analysis of the deposited data

Results flagged for a closer look

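Slc7a1 was marked for a closer look because its change from day 7 to day 10 went opposite ways in the genotypes, with every library on its side. That rule was applied to the 10 genes only, and the share of all genes that meet it was not computed. In WT the 3 libraries of day 10 (32.5, 34.9 and 38.5 CPM) lay below the 3 of day 7 (41.9, 50.2 and 52.0 CPM), and in KO the 3 of day 10 (47.1, 36.3 and 39.5 CPM) lay above the 3 of day 7 (25.1, 27.7 and 26.4 CPM). The difference between the changes was 1.08 on the log2 scale (SE 0.21, 95% interval 0.64 to 1.52; unadjusted p = 3.9e-05, adjusted p = 0.0564 by edgeR). Over the 16 alternatives the difference stayed between 0.93 and 1.18 and the adjusted p ran from 0.000883 (DESeq2) to 0.682 (edgeR without mouse 65). Without the 8 libraries of high Ddx3y the difference was 1.16 (SE 0.20, adjusted p = 0.114 by edgeR).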

How the results depend on the processing

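Of 120 results (10 genes in 12 comparisons), 35 passed the threshold; 20 of these passed in all alternatives (16 over both genotypes and, for changes within WT, 2 over WT alone) and all 35 kept their sign. Of the 85 that did not pass, 11 passed in at least 1 alternative, and 0 of these passed with the opposite sign. Several of the 85 changed sign without passing, such as Slc6a9 in KO from day 7 to day 10 (-0.96 to 0.65 over the alternatives). Counts of called genes moved as follows. For KO against WT on day 7 the 2 genes became 1 with only the groups compared, 1 with limma (voom) both with the mouse number as a replicate block and without a block, 0 on both TPM scales, and 0 to 1 with a mouse left out. Over both genotypes pooled, the replicate block had an estimated correlation of 0.0046 and itself changed no call of the 10 genes: limma with and without it lost Slc1a5 on day 7 and, in WT from day 7 to day 10, lost Slc1a4 (1.12, adjusted p = 0.0686 with the block and 0.0692 without) and gained Slc7a8 (-0.40, 0.0456 and 0.0458). That value does not test pairing within WT, where same-numbered libraries deviate together. In edgeR on the WT libraries alone, calls from day 7 to day 8 went from 3 to 5 with the replicate block and without it, from day 8 to day 10 from 5 to 7 with it and 6 without, and from day 7 to day 10 from 6 to 8 with and without it. The block itself thus added Slc7a5 (0.28, adjusted p = 0.0483 by edgeR). Calls over all genes rose too. Over these intervals they went from 6315 to 7783 with the block and 7277 without, from 4457 to 6223 and 5555, and from 5376 to 6691 and 6164. In WT from day 7 to day 8 the 3 genes became 5 with only the groups compared and on both TPM scales, with Slc3a2 and Slc38a1 added. Of all genes those fits called 7571, 6803 and 6976, beside 6315 in the main fit. In KO from day 8 to day 10 the 4 genes became 1 (Slc7a8) with only the groups compared. The difference of the genotypes' changes to day 8 went from 0 to 1 with the DESeq2 Wald test and with no filter, and that to day 10 from 0 to 1 with those and with at least 50 counts on average. With a mouse left out, the counts were 3 to 6 (5 with all mice) in WT and 3 to 5 (4) in KO from day 8 to day 10, 4 to 9 (8) in KO from day 7 to day 10, and 0 to 1 (0) for the difference to day 10. Over all genes the 211 called on day 7 became 11 to 523, and from day 8 to day 10 the 3691 in KO became 255 to 4985 and the 4457 in WT 2116 to 6223. The cause was not tested. With 16 residual degrees of freedom and 3 libraries a group, and group means of at most 5.605 CPM for Slc1a4 and 1.406 CPM for Slc6a9, small differences of these low genes were not detectable.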
